A study of Saccharomyces cerevisiae with 6 samples.

Results

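The 10 genes described here encode cohesin of Saccharomyces cerevisiae, the factors that load and maintain it, and the protease and inhibitor that control its removal. They are MCD1, SMC1, SMC3, IRR1, SCC2, SCC4, ECO1, PDS5, PDS1 and ESP1, and they were chosen by gene symbol from the 5449 genes that the annotated probe sets name. All 10 were measured, each by 1 probe set. RNA was compared between 3 cultures that had received linoleic acid hydroperoxide (LoaOOH) and 3 that had received its solvent. Each is recorded as a 50 mL aliquot, and a common parent culture is possible. LoaOOH is a lipid hydroperoxide formed when linoleic acid is oxidised. Every culture was of BY4743, a diploid laboratory strain, was grown from a single colony in minimal medium at 30 °C, and was in exponential growth at an optical density (OD600) of 1.0 when the addition was made. The LoaOOH group received 75 µM, which the labels describe as enough to arrest growth, the methanol group received an equal volume of methanol, and both were collected 1 h later. Each culture was measured on its own Affymetrix Yeast Genome 2.0 array, and values are RMA values on the log2 scale.

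Cohesin is a ring that holds sister chromatids together from their replication until anaphase. The ATPases Smc1 and Smc3 form most of the ring, the kleisin Mcd1 (also called Scc1) closes it, and Irr1 (Scc3) binds the kleisin. Scc2 and Scc4 load the ring onto chromosomes, Eco1 acetylates Smc3 during S phase so that cohesion is established, and Pds5 maintains it. Securin, the product of PDS1, holds the separase Esp1 inactive until the anaphase-promoting complex destroys it, after which Esp1 cuts Mcd1. In budding yeast the MCD1 message is known to accumulate late in G1.

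The ring subunits and PDS5 fell in LoaOOH-treated cells, whereas neither loader gene did. MCD1 fell 5.37-fold, PDS5 3.36-fold and SMC3 3.07-fold. IRR1 fell 1.98-fold and SMC1 1.91-fold. ECO1, PDS1 and ESP1 fell by less, and their falls depended on how the arrays were scaled. SCC4 rose 1.24-fold, and SCC2 was not called in the deposited scaling. Of the 10 members 8 were called lower and 1 higher by limma at a Benjamini-Hochberg adjusted p under 0.05. This threshold called 78.7% of all 5498 probe sets, 41.9% lower and 36.8% higher, so a call is common in these data. At least 2-fold falls were rarer: they were called in 3 members, MCD1, PDS5 and SMC3, and in 4.15% of all probe sets. The median log2 difference was -0.77 over the members and -0.03 over all probe sets.

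The scaling of the arrays bears on these directions. The 36 probe sets for poly-A spike-ins, bacterial messages added to the RNA, were on average 0.52 lower on the LoaOOH arrays on the log2 scale (SE 0.119 over arrays; exact two-sided permutation p = 0.1, the smallest that 3 against 3 arrays allow). The 17 ribosomal RNA probe sets were all lower, by 0.64 on average on the same scale (exact p = 0.1), while the 27 hybridisation controls, added after labelling, differed by -0.02 (exact p = 0.8). If each array is scaled to the poly-A spike-ins, all differences rise by 0.52 and the median of all probe sets becomes 0.48. In that scaling 7.68% of probe sets were called lower and 65.9% higher, and of the members 5 were lower, 2 higher and 3 not called. The 5 lower members were MCD1, SMC3, PDS5, IRR1 and SMC1. The groups did not overlap in 7 members in that scaling, against 73.6% of all probe sets. The error of the spike-in shift is common to all genes on an array, and limma's moderation then gave each gene the same SE (0.136) with unlimited prior degrees of freedom, so adjusted p-values from that fit are too small and its calls are not independent between genes. With each gene's own variance on 4 degrees of freedom, an alternative added after seeing the data, 5.18% of probe sets were lower and 54.4% higher, and 5 members were again lower and 2 higher. Adjusted p-values given below for members in the spike-in scaling are from this unmoderated fit, and counts for other gene groups are from the moderated one. Differences below are LoaOOH minus methanol in the deposited scaling, relative to the typical message, unless the spike-in scaling is named. Pairs of arrays correlated at 0.99768 or more within a group and at 0.95431 or less between groups. Of the markers that BY4743 lacks, URA3 read 3.50 in methanol and 3.37 in LoaOOH and LEU2 read 5.39 and 5.64, while HIS3, which carries only a partial deletion, read 10.99 and 12.42. Of 12 genes that diploids repress, 4 were called lower and 4 higher, and their methanol means lay between 5.05 and 10.53. The highest were RME1 (10.53), STE4 (9.22) and STE2 (8.34), and the lowest FUS3 (5.05), STE18 (5.30) and HO (5.68). RME1 thus read near the array medians of 10.588 to 10.628, and repression of these genes was not tested.

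MCD1, the kleisin, read 11.45, 11.38 and 11.46 in the methanol cultures and 8.99, 8.98 and 9.05 in the LoaOOH cultures. The groups lay far apart, and the values of a group spanned at most 0.077. The log2 difference was -2.42 (SE 0.045, 95% interval -2.52 to -2.32, n = 3 per group, adjusted p = 8.02e-10), the 5th lowest of the 5498 probe sets. In the spike-in scaling it was -1.91.

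SMC3 read 11.67, 11.69 and 11.73 in methanol and 10.02, 10.03 and 10.18 in LoaOOH. All LoaOOH cultures were low, with replicate 3 the highest of them. Its log2 difference was -1.62 (SE 0.052, adjusted p = 1.55e-08) and -1.10 in the spike-in scaling. SMC1, whose product pairs with Smc3 in the ring, read 11.01, 10.96 and 10.99 in methanol and 10.08, 10.03 and 10.07 in LoaOOH. These groups did not overlap either, though the step was smaller. The difference was -0.93 (SE 0.041, adjusted p = 8.76e-08) and -0.41 in the spike-in scaling (adjusted p = 0.0362).

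IRR1, the subunit that binds the kleisin, read 10.74, 10.62 and 10.74 in methanol and 9.74, 9.73 and 9.68 in LoaOOH. Every LoaOOH culture lay below every methanol culture. The difference was -0.99 (SE 0.049, adjusted p = 1.69e-07), close to that of SMC1, and -0.47 in the spike-in scaling (adjusted p = 0.0183).

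The falls of the ring genes differed in size. To compare members without regard to array scaling, the log2 value of one was subtracted from that of another on the same array. The level of such a difference depends on the probes, so only its change between groups is read. MCD1 minus SMC1 was 0.44, 0.42 and 0.46 in methanol and -1.09, -1.05 and -1.02 in LoaOOH. The fall of MCD1 was 2.82 times that of SMC1 as a ratio of folds (change -1.49, SE 0.025, exact two-sided permutation p = 0.1, n = 3 per group). The change of MCD1 minus IRR1 was -1.44 (SE 0.043, exact p = 0.1) and that of MCD1 minus SMC3 was -0.81 (SE 0.039, exact p = 0.1). The groups did not overlap in any of these 3 pairs, and an exact p of 0.1 is the smallest this design can give. Including the pairs below, 9 were compared, and a raw p of 0.1 became 0.1125 after Benjamini-Hochberg adjustment over them.

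**Figure D1:**
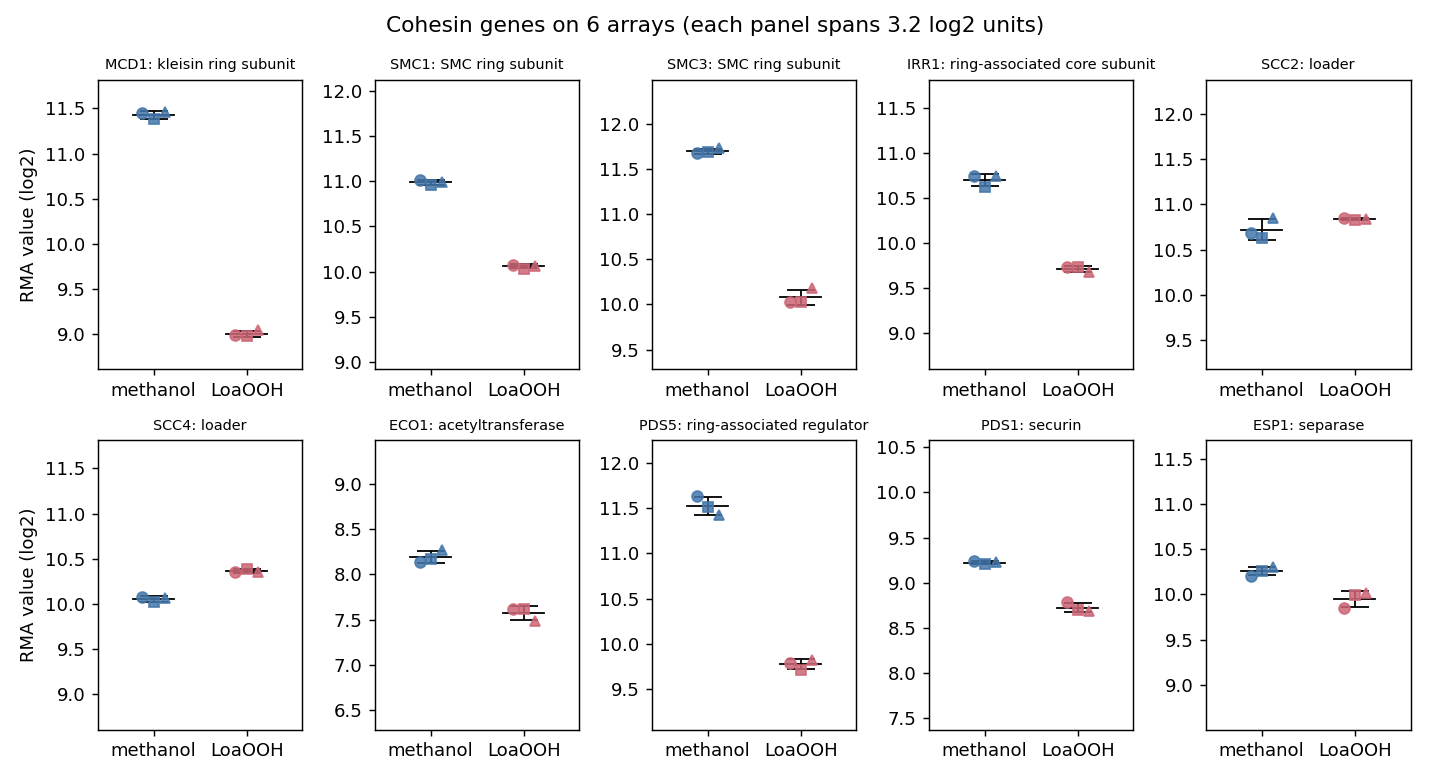
RMA value (log2) of each of the 10 genes on each array, methanol in blue and LoaOOH in red, with circles, squares and triangles for replicates 1, 2 and 3. Horizontal lines are means and bars are SD (n = 3), and every panel spans the same number of log2 units, so the step in MCD1 from a mean of 11.43 to 9.01 can be set against the small steps of ESP1, SCC4 and SCC2.

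PDS5, which keeps cohesin on chromosomes after loading, read 11.64, 11.51 and 11.43 in methanol and 9.79, 9.71 and 9.82 in LoaOOH. Its methanol values spread by 0.206, far less than the step between the groups. The difference was -1.75 (SE 0.060, adjusted p = 2.07e-08) and -1.23 in the spike-in scaling. Among the members this was the largest fall after that of MCD1, and it was the 25th lowest of all probe sets, with SMC3 39th.

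ECO1, the Smc3 acetyltransferase, had the dimmest probe set of the members. It read 8.13, 8.17 and 8.27 in methanol and 7.62, 7.62 and 7.49 in LoaOOH, without overlap. The difference was -0.62 (SE 0.055, adjusted p = 7.66e-06). In the spike-in scaling the groups overlapped and the difference was -0.10 (adjusted p = 0.530), and a fall was not called. On the same array ECO1 minus PDS5 rose from -3.34 ± 0.170 (SD, n = 3) in methanol to -2.20 ± 0.120 in LoaOOH, a change of 1.13 (SE 0.120, exact two-sided permutation p = 0.1). The groups did not overlap in this difference, which is the same in either scaling.

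The loader genes stood apart from the ring. SCC4 read 10.08, 10.02 and 10.07 in methanol and 10.35, 10.39 and 10.36 in LoaOOH, with all LoaOOH cultures higher. It rose by 0.31 (SE 0.041, 95% interval 0.22 to 0.40, adjusted p = 9.92e-05), and by 0.83 in the spike-in scaling. SCC2, the larger loader subunit, read 10.69, 10.63 and 10.85 in methanol and 10.85, 10.82 and 10.84 in LoaOOH. The groups overlapped through methanol replicate 3, which lay among the LoaOOH cultures. The difference of 0.11 was not called (SE 0.059, 95% interval -0.02 to 0.25, adjusted p = 0.101). Without methanol replicate 3 it was 0.18 and was called (adjusted p = 0.00561), without methanol replicate 2 it was 0.07 and was not called (adjusted p = 0.345), and in the spike-in scaling it was 0.63 and called higher (adjusted p = 0.0233). SCC2 was called in 5 of the 19 alternatives run, each time as higher. Its interval in the deposited scaling excludes a fall of the size seen for any ring gene. SCC2 minus SCC4 changed by -0.20 (SE 0.060, exact two-sided permutation p = 0.1).

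Securin and separase changed little beside the ring. PDS1, the securin gene, read 9.24, 9.20 and 9.23 in methanol and 8.78, 8.70 and 8.69 in LoaOOH, without overlap. Its difference was -0.50 (SE 0.044, adjusted p = 6.54e-06), a 1.41-fold fall. ESP1, the separase gene, read 10.21, 10.26 and 10.30 in methanol and 9.85, 9.99 and 10.01 in LoaOOH, again without overlap. Its difference was -0.30 (SE 0.055, adjusted p = 0.000728), a 1.23-fold fall. Scaled to the spike-ins the groups overlapped for both genes, with differences of 0.02 for PDS1 (adjusted p = 0.861) and 0.21 for ESP1 (adjusted p = 0.321). PDS1 minus ESP1 was -0.97, -1.06 and -1.07 in methanol and -1.07, -1.29 and -1.32 in LoaOOH, a change of -0.19 (SE 0.085, exact two-sided permutation p = 0.2, where 0.1 is the smallest possible). The groups overlapped only through LoaOOH replicate 1, so a difference between the inhibitor and the protease was neither shown nor excluded.

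In the deposited scaling the groups did not overlap in 9 of the 10 members, against 81.1% of all probe sets.

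**Figure D2:**
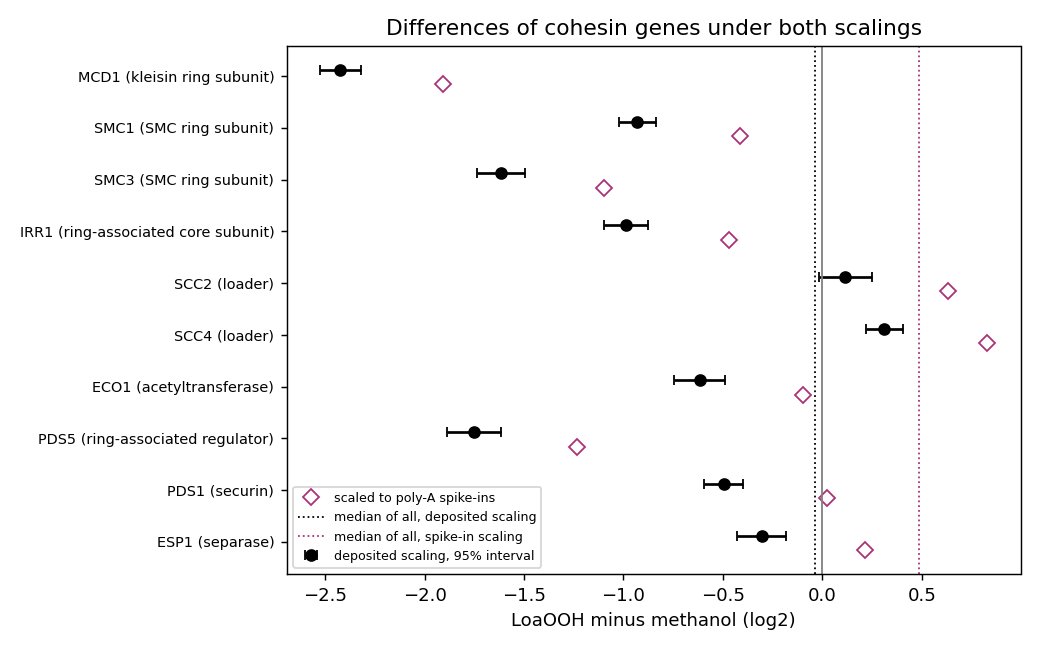
Log2 difference (LoaOOH minus methanol) of each gene, with black points and bars for the deposited scaling and its 95% interval and open diamonds for the same difference scaled to the poly-A spike-ins. Dotted lines are the medians of all probe sets in each scaling, -0.03 and 0.48; MCD1, SMC3, PDS5, IRR1 and SMC1 lie left of 0 in both, and the loaders SCC2 and SCC4 lie right of 0 in both.

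Cohesin can be set beside condensin, the related ring that compacts chromosomes for mitosis. All 5 condensin genes were called lower, but by small amounts: the kleisin gene BRN1 had a difference of -0.71, YCS4 -0.52, SMC2 -0.43, and SMC4 and YCG1 -0.36 each. None of them was called in the spike-in scaling (median 0.09). Related subunits were then compared on the same array, in 3 pairs chosen after their values were seen. MCD1 minus BRN1 changed by -1.71 (SE 0.114), SMC3 minus SMC2 by -1.18 (SE 0.068) and SMC1 minus SMC4 by -0.57 (SE 0.087). In each pair the groups did not overlap (exact two-sided permutation p = 0.1, the smallest possible, n = 3 per group), with the cohesin subunit lower relative to its condensin counterpart on every LoaOOH array than on any methanol array.

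In the Smc5-Smc6 complex, which acts in DNA repair and recombination, 5 of 8 genes were called lower and 1 higher (median -0.24). The kleisin gene of that complex, NSE4, fell by 1.30 on the log2 scale (SE 0.064, adjusted p = 1.63e-07), while SMC6 (-0.56) and SMC5 (-0.53) fell by less, and NSE5 rose by 0.18. In the spike-in scaling NSE4 alone was called lower and 4 were higher. In all 3 of these SMC complexes the kleisin gene had the lowest difference of its complex, a ranking that was not tested. For condensin it rests on a dim probe set. BRN1 read 7.49 in methanol and 6.77 in LoaOOH, below ECO1 in both groups. Scaled to the spike-ins, BRN1 differed by only -0.20, without a call.

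**Figure D3:**
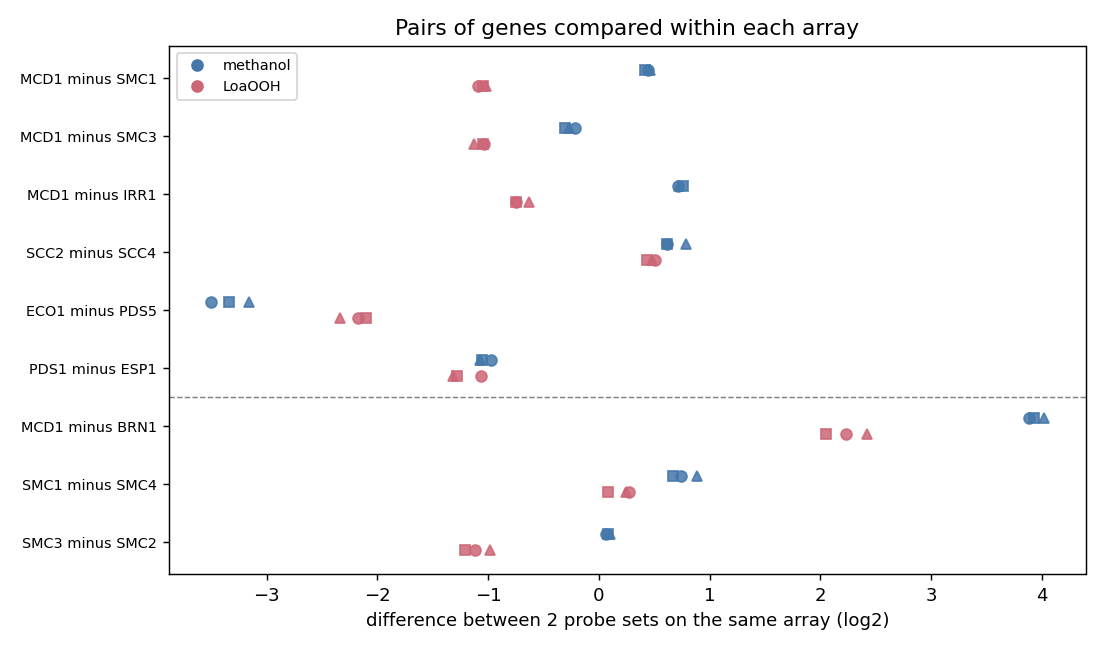
Difference in log2 value between the probe sets of 2 genes on the same array, methanol in blue and LoaOOH in red, with circles, squares and triangles for replicates 1, 2 and 3; pairs under the dashed line were chosen after values were seen. The horizontal position of a pair depends on its probes and only the step from blue to red is read; the groups are apart in 8 of the 9 pairs and overlap for PDS1 minus ESP1.

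Genes that act with cohesin at the replication fork were called lower in 10 of 10 cases in the deposited scaling (median -0.72), against 41.9% of all probe sets. In the spike-in scaling 4 of them were called lower, 6 were not called and 0 were higher. Of all probe sets 7.68% were lower and 65.9% higher in that scaling. POL30, which encodes the sliding clamp PCNA that recruits Eco1, fell 4.54-fold, and CSM3, a fork protection gene, fell 2.79-fold. CTF18, a clamp loader gene needed for cohesion, was not among those fixed for naming and had a difference of -1.21. The smallest falls of this group were those of CTF4 (-0.45), CTF8 (-0.32) and DCC1 (-0.31). In the spike-in scaling these turned to 0.07, 0.20 and 0.21, and none was called. Of the 6 genes of cohesin release, protection and meiotic cohesin all were called lower, by small amounts (median -0.30). SGO1, which protects centromeric cohesin in meiosis and senses tension in mitosis, had a difference of -0.57, and CDC5, the polo kinase that phosphorylates Mcd1, -0.50. RAD61, the releasing factor also called WPL1, had -0.28, and REC8, the meiotic kleisin, -0.14. In the spike-in scaling none of these 6 was lower and 2 were higher: REC8 turned to 0.38 and SPO13, which acts in meiosis I, from -0.18 to 0.33. REC8 read 6.21 in methanol and 6.07 in LoaOOH. SPO13 read 4.98 and 4.80, lower than LEU2, a marker that BY4743 lacks.

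The genes of the machinery that triggers cohesin cleavage lay on both sides of 0. Of 17 genes of the anaphase-promoting complex and its activators 6 were called lower and 7 higher (median 0.05; 2 lower and 11 higher in the spike-in scaling), shares near the 41.9% and 36.8% of all probe sets. ACM1, an inhibitor of the Cdh1 activator, fell 5.72-fold, and AMA1, a meiotic activator, fell 2.08-fold. The subunit genes CDC26 and APC11 rose 1.67-fold and 1.55-fold, and CDC20, whose product directs the complex to securin, rose by 0.41. Of 9 spindle checkpoint genes 7 were called lower and 1 higher (median -0.37; 2 lower and 3 higher in the spike-in scaling). BUB1, a checkpoint kinase that also marks centromeres for Sgo1, fell by 1.11 and IPL1, the Aurora kinase, fell by 0.98, while MAD1 rose by 0.21. Of 9 genes of early anaphase release and its phosphatase 5 were called lower and 2 higher (median -0.23; 1 lower and 5 higher in the spike-in scaling), with ZDS1, a regulator of the phosphatase PP2A, at -1.33, FOB1 at -0.65, BNS1 at 0.65 and NET1 at 0.19.

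Among the markers of cell cycle phase, those of late G1 were lower together with the ring genes, and the other phases had medians between -0.21 and -0.14. All 15 late G1 markers measured were called lower (median -1.19), and 11 were lower and 0 higher in the spike-in scaling. CDC9, the replicative DNA ligase gene, fell 4.03-fold and RNR1, for ribonucleotide reductase, 3.86-fold. The levels of the 15 were also summed on the linear scale. This sum, in log2, lay between 14.91 and 14.96 in methanol and between 13.85 and 13.88 in LoaOOH. Such sums, here and below, weigh the brightest genes most, in late G1 RNR1 (12.76 in methanol). Of 7 S phase histone genes 4 were lower (median -0.14), led by HTB2 at -1.62 and HTB1 at -0.52, with summed levels of 16.88 to 16.90 in methanol and 16.63 to 16.73 in LoaOOH. Of 9 G2 and M markers 5 were lower and 3 higher (median -0.20), with CLB1 (-0.66) and CDC5 lowest and SWI5 and CDC20 highest (0.41 each). Their summed levels lay at 14.11 to 14.27 in methanol and 13.89 to 13.90 in LoaOOH. CLB1, the brightest of these markers at 12.97 in methanol, weighs most in this sum. Of 13 M/G1 markers 8 were lower and 2 higher (median -0.21), with PCL9 (-1.46) and SIC1 (-1.11) lowest and CTS1 (0.28) and DSE2 (0.17) highest. Their summed levels were 15.68 to 15.72 and 15.59 to 15.60. In the spike-in scaling the last 3 groups had 1, 0 and 2 genes lower and 5, 5 and 7 higher. The part of cell cycle position in the changes of the cohesin genes was not tested, and in bulk RNA fewer cells in a phase and less message per cell cannot be told apart.

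**Figure D4:**
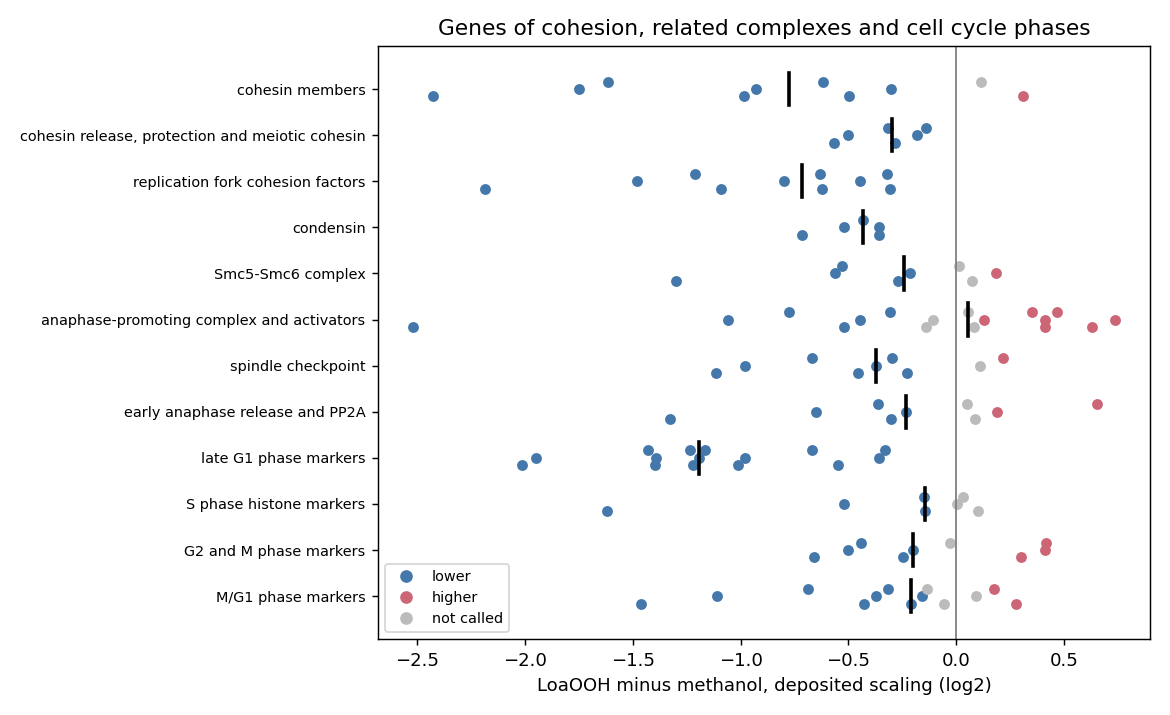
Log2 difference (LoaOOH minus methanol, deposited scaling) of each gene in 12 groups, coloured by its call, with a black bar at the median of the group; vertical offsets only separate points. The late G1 markers have the lowest median (-1.19), followed by the cohesin members (-0.77) and the fork factors (-0.72), while the anaphase-promoting complex spreads to both sides of 0.

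Genes outside the members with a standard name were ranked by the distance of their centred profile over the 6 arrays to that of MCD1. The 5 nearest were ACM1 (Euclidean distance 0.137), TOS4 (0.137), BIO4 (0.165), SPS4 (0.232) and POL30 (0.322). Since the profiles are dominated by the step between the groups, this lists genes with a fall of like size, from -2.52 for ACM1 to -2.18 for POL30. TOS4 encodes a late G1 transcription factor, BIO4 a biotin synthesis enzyme and SPS4 a sporulation protein.

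Neighbouring genes were examined as well. In the S288C assembly R64, SMC3, SCC4, ECO1 and ESP1 are each transcribed divergently from a neighbouring gene, so that the upstream regions are shared. SMC3 lies beside JEM1, a chaperone gene of the endoplasmic reticulum, which fell by 1.68 (SE 0.052, adjusted p = 1.28e-08), about as far as SMC3 itself, and by 1.16 in the spike-in scaling. ECO1 lies beside ULI1, which fell by 1.66 (SE 0.046, adjusted p = 6.73e-09), more than ECO1, and by 1.14 in the spike-in scaling. ESP1 lies beside TEL2, a telomere length regulator, whose difference was -0.61 in the deposited scaling and -0.09, not called, in the spike-in scaling. SCC4 went the other way from its neighbour SPT15, the TATA-binding protein gene, which had a difference of -0.47, and of 0.05, not called, in the spike-in scaling. Upstream neighbours in tandem were measured for 4 members. ATP16, before MCD1, had a difference of -0.28, and 0.24 without a call when scaled to the spike-ins. CDC4, before SMC1, had -0.21 and turned to 0.31, called higher. VPS20, before PDS5, rose by 0.34, and by 0.86 in the spike-in scaling. NVJ3, before SCC2, had -0.51, and 0.00477, not called, in the spike-in scaling.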

How the data were processed

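The authors deposited log2 values for 5900 probe sets. RMA and Partek are named in the submitters' processing notes, with no version or role given in the sources used here, nor which arrays were normalised together. RMA corrects background, quantile-normalises arrays and summarises probes, which would hide a change common to most messages. Array medians lay between 10.588 and 10.628. Of the probe sets 184 were controls and 218 had no annotated gene; the other 5498 named 1 gene each (5449 genes), and 12 older symbols were updated through the R64 gene table.

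Sample titles gave the group and replicate number. Groups were compared with limma 3.58.1 under R 4.3.3 (eBayes on lmFit, two-sided, Benjamini-Hochberg over all 5498). On simulated data it recovered 60% of changes of 0.25 and 100% of those of 0.5, 1 and 2 (log2). Each size was given to 50 of 5498 probe sets, and there were 12 false calls among 5298 unchanged. The simulated arrays had independent noise, few changed probe sets and no shift between arrays. These figures therefore do not cover errors of scaling in the real data, where 78.7% of probe sets were called. Single values per array were compared by an exact permutation test. The labels describe 6 samples, each a 50 mL aliquot. That the aliquots are independent cultures is not established. A common parent culture is possible, and p-values measure only the spread between these samples. At most 0.109% of values were identical between any arrays. Precision is limited by the number of arrays, with a median SE of 0.0527.

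The members and lists were chosen with earlier results of these data known. Named genes are all members, divergent neighbours, and the 2 lowest and 2 highest called genes of each other list. The 5 nearest profiles to MCD1, among genes with a standard name, are also named. Others (CTF18, CTF4, CTF8, DCC1, SMC2, SMC4, SMC5, YCG1, RAD61, REC8, SPO13, tandem neighbours and strain markers) were named after their values were seen. So were RME1, STE2, FUS3, STE18 and HO among genes that diploids repress. Where a gene has several probe sets the brightest was used. Among genes that diploids repress, MFA2 (-0.89) and STE4 (-0.66) were lowest and GPA1 (0.41) and MF(ALPHA)1 (0.32) highest. Alternatives were other scalings, variance models, filters, thresholds, a replicate block and leaving out each array.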

Additional observations from a re-analysis of the deposited data

How the results depend on the processing

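MCD1, SMC1, SMC3, IRR1 and PDS5 were called lower under all 19 alternatives; MCD1 ranged from -2.45 to -1.91. Scaling to the poly-A spike-ins left 5 members lower and 2 higher, with PDS1 at 0.022 and ESP1 at 0.21 turning positive without a call; without variance moderation that scaling (added after seeing the data) gave the same 5 lower and 2 higher, with PDS1 and ESP1 again at 0.022 and 0.21. Against a log2 change of 0.5 limma's treat called 1221 of the 5498 probe sets, and of the members 5, all 5 lower and 0 higher. Median centring, array weights (whose estimation stopped before its convergence tolerance) and leaving out methanol replicate 3 each gave 2 members higher, since SCC2 was then called (adjusted p = 0.0414, 0.00438 and 0.00561). The cause was not tested. Leaving out each array in turn gave 4053 to 4279 probe sets called, and 9 to 10 members called, 8 lower in each case and 1 to 2 higher. Without the dimmest 25% of probe sets 3324 of those left were called. ECO1 and PDS1 were then not tested, and 6 of the other members were lower and 1 higher. The replicate block called 4453 probe sets, with 8 members lower and 1 higher. Same-numbered arrays deviated together at r = 0.31, 0.05 and 0.26, and differently numbered arrays at r from -0.30 to 0.13. Whether the numbers pair the cultures was not tested, and the main fit did not use them. No within-array pair turned its direction; SCC2 minus SCC4 ranged from -0.23 to -0.14 and PDS1 minus ESP1 from -0.27 to -0.14 as single arrays were left out.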
